A study of Homo sapiens with 4 samples.

Results

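The regions described here are the H3K27Ac peaks shared by the colon cancer line COLO-205 and the ovarian cancer line OVCAR-3 and by no other line of the set. H3K27Ac is the acetylation of lysine 27 of histone H3, which marks active promoters and enhancers. The regions were chosen by their presence in the deposited peak lists. A COLO-205 peak was taken when it overlapped an OVCAR-3 peak by at least 1 base and overlapped no peak of the prostate cancer line DU-145 or of SKOV-3, the second ovarian cancer line. This gave 5681 of 85576 COLO-205 peaks, or 6.64%, among 251138 peaks in the 4 lists. They are called COLO-205/OVCAR-3 peaks below.

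The ChIP-seq data come from the 4 established cell lines, grown untreated in serum-supplemented medium and precipitated with the same antibody against H3K27Ac. COLO-205 and OVCAR-3 were kept in RPMI medium, DU-145 in Eagle minimal essential medium and SKOV-3 in McCoy's medium. Each line was profiled in 1 library, which leaves no replicate spread. No test between lines was therefore made, and every interval below covers counting error only. The medium, the library and the line cannot be told apart in this design. The lists hold 85576 peaks in COLO-205, 76093 in OVCAR-3, 75468 in DU-145 and 14001 in SKOV-3. A peak missing from the short SKOV-3 list is therefore a weaker statement than a peak missing from the DU-145 list. The number of tags at a summit could be recovered from the deposited values in at least 99.9% of the peaks of every list, with a median between 24 and 30 tags.

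Colon, ovary and prostate epithelia each have their own set of lineage transcription factors, while genes of the epithelial state, such as those of cell junctions and keratins, are used by all of them. COLO-205 and OVCAR-3 are both epithelial in culture. Colon identity is known to be carried by factors such as CDX2 and HNF4A, and that of Müllerian epithelium, from which most ovarian carcinomas derive, by PAX8, SOX17, EMX2 and WT1. Active enhancers lie mostly far from transcription starts and differ more between cell types than active promoters do.

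The labels were checked against defining genes with a peak within 1 kb of a start. Of 10 colon genes, 6 were marked in COLO-205, 1 in OVCAR-3, 1 in DU-145 and 0 in SKOV-3, and the 6 include CDX2, VIL1 and HNF4A. Of 9 genes of the Müllerian and ovarian carcinoma set, OVCAR-3 had 9, DU-145 6, COLO-205 5 and SKOV-3 3. Of 8 prostate genes, COLO-205 had 4, among them KLK2 and KLK3, while OVCAR-3 and DU-145 had 3 each and SKOV-3 had 1. All 7 epithelial genes were marked in COLO-205 and OVCAR-3, 6 in DU-145 and 3 in SKOV-3. SKOV-3 instead had 3 of 6 mesenchymal genes, including VIM and FN1, against 2 in DU-145, VIM and ZEB1, and 1 each in COLO-205 and OVCAR-3. Of all 19794 protein-coding genes, 9665 had a start peak in COLO-205, 11768 in OVCAR-3, 11616 in DU-145 and 6131 in SKOV-3. The colon genes thus set COLO-205 apart from the other lines. Within COLO-205 their share was little above that of the Müllerian, prostate and all genes. OVCAR-3 had all of its lineage genes, DU-145 few of the prostate genes, and SKOV-3 few of the ovarian genes, about the share of its genes in general.

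Sequences are shown for 4 of the strongest COLO-205/OVCAR-3 peaks, to let a reader see the DNA under the summits that both lines mark. Strength was ranked by the lower of the 2 percentiles of −log10 q, the significance that the peak caller gave to the summit, in COLO-205 and in OVCAR-3. Each run is the 201 bases centred on the COLO-205 summit, read from the plus strand of GRCh37, and none overlaps an annotated exon. Capitals mark every match to the 25 short motifs that were searched on both strands. The first 2 lie in an intron of LLGL2, the human homologue of a fly polarity gene, at chr17:73545757-73545957 and chr17:73546191-73546391, the next in an intron of TP63, a basal epithelial transcription factor, at chr3:189560877-189561077, and the last between genes at chr4:169991712-169991912 with CBR4 as the nearest protein-coding gene.
LLGL2 first summit: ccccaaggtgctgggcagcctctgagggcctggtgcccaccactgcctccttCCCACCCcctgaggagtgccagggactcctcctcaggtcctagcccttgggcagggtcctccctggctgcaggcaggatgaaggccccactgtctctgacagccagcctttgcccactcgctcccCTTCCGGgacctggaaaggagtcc
LLGL2 second summit: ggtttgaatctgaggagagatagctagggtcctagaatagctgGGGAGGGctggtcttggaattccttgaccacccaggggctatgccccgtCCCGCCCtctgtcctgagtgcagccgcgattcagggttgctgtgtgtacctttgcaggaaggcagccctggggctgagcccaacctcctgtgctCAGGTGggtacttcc
TP63 intron: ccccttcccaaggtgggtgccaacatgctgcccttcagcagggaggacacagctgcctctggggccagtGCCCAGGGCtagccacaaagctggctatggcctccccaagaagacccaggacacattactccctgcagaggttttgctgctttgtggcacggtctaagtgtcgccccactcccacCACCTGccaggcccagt
CBR4 upstream: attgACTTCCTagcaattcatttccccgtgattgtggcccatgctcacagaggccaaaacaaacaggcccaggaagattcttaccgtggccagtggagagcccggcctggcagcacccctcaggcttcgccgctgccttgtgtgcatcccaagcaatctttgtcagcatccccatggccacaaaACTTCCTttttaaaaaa

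The windows differ in base composition, with a GC content of 67.2% and 59.7% at LLGL2, 62.2% at TP63 and 52.7% at CBR4. The LLGL2 windows hold the G-rich letters of SP and KLF factors, GGGNGGG, read in part as CCCNCCC. The CBR4 window holds the ETS letters AGGAAGT at either end, read as ACTTCCT. A match of letters describes the sequence and is not evidence that a factor binds there.

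Most COLO-205/OVCAR-3 peaks lay away from promoters, and the stronger ones less often so. At most 1 kb from the start of a protein-coding transcript were 888 of 5681, or 15.6% (exact 95% interval 14.7 to 16.6). This share was 15.9% over all COLO-205 peaks, 5.64% over the 63978 peaks found in COLO-205 only, 19.8% over the 4202 peaks that COLO-205 shared with DU-145 only and 85.9% over the 5542 peaks present in all 4 lists. In the full lists, promoter peaks thus made up most of what all 4 lines share and a small part of what COLO-205 shared with a single other line. Of the COLO-205/OVCAR-3 peaks with a −log10 q, the significance defined above, of at least 10 in both lines, 252 of 922 or 27.3% were within 1 kb of a start. Of the 168 that stood among the 14001 strongest peaks of both lists, the number in the SKOV-3 list, it was 78 or 46.4%. The share over all COLO-205 peaks of that strength was not set beside these, so the rise cannot be called particular to COLO-205/OVCAR-3 peaks. The median distance from a COLO-205/OVCAR-3 peak to the nearest protein-coding start was 14558 bp. A distance of 1 to 10 kb was found for 1494 peaks, 10 to 50 kb for 2078, 50 to 100 kb for 676 and over 100 kb for 545. Of the 4793 peaks beyond 1 kb, called distal below, 2817 or 58.8% had their summit inside a protein-coding gene, 549 or 11.5% in an annotated exon, and 182 or 3.80% within 1 kb of the start of a long non-coding RNA gene.

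In strength these were ordinary peaks of either list. The median fold enrichment, the pileup at the summit over the local background of the same library, was 4.50 in COLO-205 and 4.95 in the OVCAR-3 partner, and the median pileup was 24 and 28 tags. Their median percentile of −log10 q was 44.8 among all COLO-205 peaks and 43.4 among all OVCAR-3 peaks. Above the median of the list stood 44.4% of them in COLO-205 and 44.1% in OVCAR-3. In COLO-205 the peaks present in all 4 lists had a median −log10 q of 15.4, against 7.97 here. The strength in one line said little about that in the other. Across the 5681 peaks, which share their libraries and are not independent, Pearson's r of log2 fold was 0.0888 and Spearman's rho of fold 0.143. Only 330 peaks, or 5.81%, stood among the upper 25% of both lists, and 3424, or 60.3%, had the higher fold in OVCAR-3, which is not scaled to COLO-205.

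**Figure D1:**
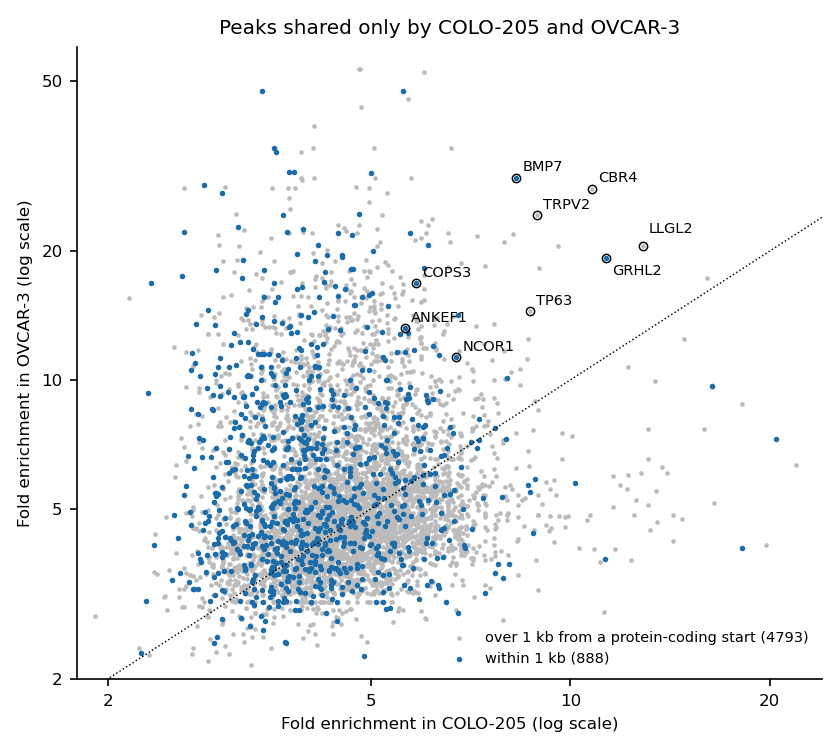
Each point is 1 of the 5681 COLO-205/OVCAR-3 peaks, with its fold enrichment in COLO-205 on the x axis and that of its strongest overlapping OVCAR-3 peak on the y axis, both on log scales, and the dotted line marks equal values. Blue points are the 888 peaks within 1 kb of a protein-coding start, grey points the 4793 distal peaks, and named circles 9 of the highest-ranked peaks, with at most 1 per gene. The cloud is centred near 5 in both lines and has separate arms of high fold in only one of them.

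The overlap itself was rarely marginal. A median of 90.4% of a COLO-205 peak was covered by OVCAR-3 peaks, 2194 or 38.6% lay fully inside an OVCAR-3 peak, and 40 overlapped by under 20 bp. The smallest overlaps were 2 bp, at peaks nearest to CAMTA1, CACNA1G and TSPOAP1, with folds of 3.59, 4.01 and 3.09 in COLO-205 and 4.20, 4.15 and 3.25 in OVCAR-3. Just outside the rule, a peak at the start of CAPN1 with a fold of 3.89 in COLO-205 and 14.7 in OVCAR-3 was left out for 2 bp of overlap with a DU-145 peak of fold 6.18, and a peak nearest to NIBAN2 for 2 bp of overlap with a SKOV-3 peak of fold 4.54. Seen from OVCAR-3, 5506 peaks were partners and 5256 of them, or 95.5%, themselves overlapped no DU-145 or SKOV-3 peak. Many COLO-205/OVCAR-3 peaks had a DU-145 peak not far off. One stood within 1 kb of 701 of them and within 10 kb of 2469, or 43.5%, and none within 100 kb of 760, or 13.4%. For SKOV-3, a peak lay within 10 kb of 1000, or 17.6%.

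The strongest COLO-205/OVCAR-3 peak at a promoter was that of GRHL2, which encodes a grainyhead-like transcription factor that keeps epithelial junction genes active. Around its start COLO-205 had a peak of fold 11.3 and 97 tags, and OVCAR-3 one of fold 19.3 and 176 tags. DU-145 and SKOV-3 had no peak within 1 kb of its start. The nearest DU-145 peak was 71143 bp and the nearest SKOV-3 peak 211247 bp from the COLO-205 peak. So both lines marked the GRHL2 promoter among their strongest peaks, while DU-145, which marked 6 of 7 epithelial genes, did not list it.

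At 4 others of the 12 highest promoters, DU-145 and SKOV-3 had no peak over the gene and 10 kb on either side. NCOR1 encodes a nuclear receptor co-repressor, and its strongest start peak had a fold of 6.72 in COLO-205 and 11.3 in OVCAR-3. MDK encodes the heparin-binding growth factor midkine, and its start had a fold of 6.10 in COLO-205 and 20.7 in OVCAR-3. At ADAP1, an ARF GTPase-activating protein, the shared peak had a fold of 5.29 in COLO-205 and 8.84 in OVCAR-3, and at ANKEF1 it was 5.62 and 13.2. All 4 were higher above background in OVCAR-3, each within its own library. The DU-145 list had no peak for 398277 bp around the ANKEF1 peak and for 428334 bp around that of NCOR1, so the gaps there are wider than the genes. BMP7, a bone morphogenetic protein ligand, had a fold of 8.28 in COLO-205 and 29.7 in OVCAR-3, and its locus held 1 DU-145 peak, 58502 bp from the start peak.

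At the other promoters of the 12, the distance to DU-145 varied. MSLN is a surface glycoprotein of mesothelium and of many ovarian carcinomas. Its start peak had a fold of 6.33 and 57 tags in COLO-205 and of 11.4 and 107 tags in OVCAR-3, while DU-145 had a weaker peak of fold 3.58 and 34 tags that began 16 bp from the COLO-205 peak. NDUFS3, a subunit of respiratory complex I, had folds of 4.55, 7.76 and 2.23 in COLO-205, OVCAR-3 and DU-145, and the DU-145 peak was 181 bp away. At HOXA3, a homeobox gene with several starts, all 4 lines had a peak at some start, with highest folds of 5.62, 11.6, 8.42 and 4.69 in COLO-205, OVCAR-3, DU-145 and SKOV-3. COPS3, a signalosome subunit, MANSC1, a membrane protein gene, and EPN3, an epsin of epithelia, had start folds of 5.85, 5.64 and 6.10 in COLO-205 and 16.8, 9.04 and 8.89 in OVCAR-3, with none listed in DU-145 or SKOV-3, and DU-145 peaks 22039, 6642 and 8396 bp away. The absence of a DU-145 overlap therefore went with no DU-145 peak within 1 kb of any start at GRHL2 and NCOR1, with a DU-145 peak beside the COLO-205 peak at MSLN and NDUFS3, and with one 2278 bp away at HOXA3.

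**Figure D2:**
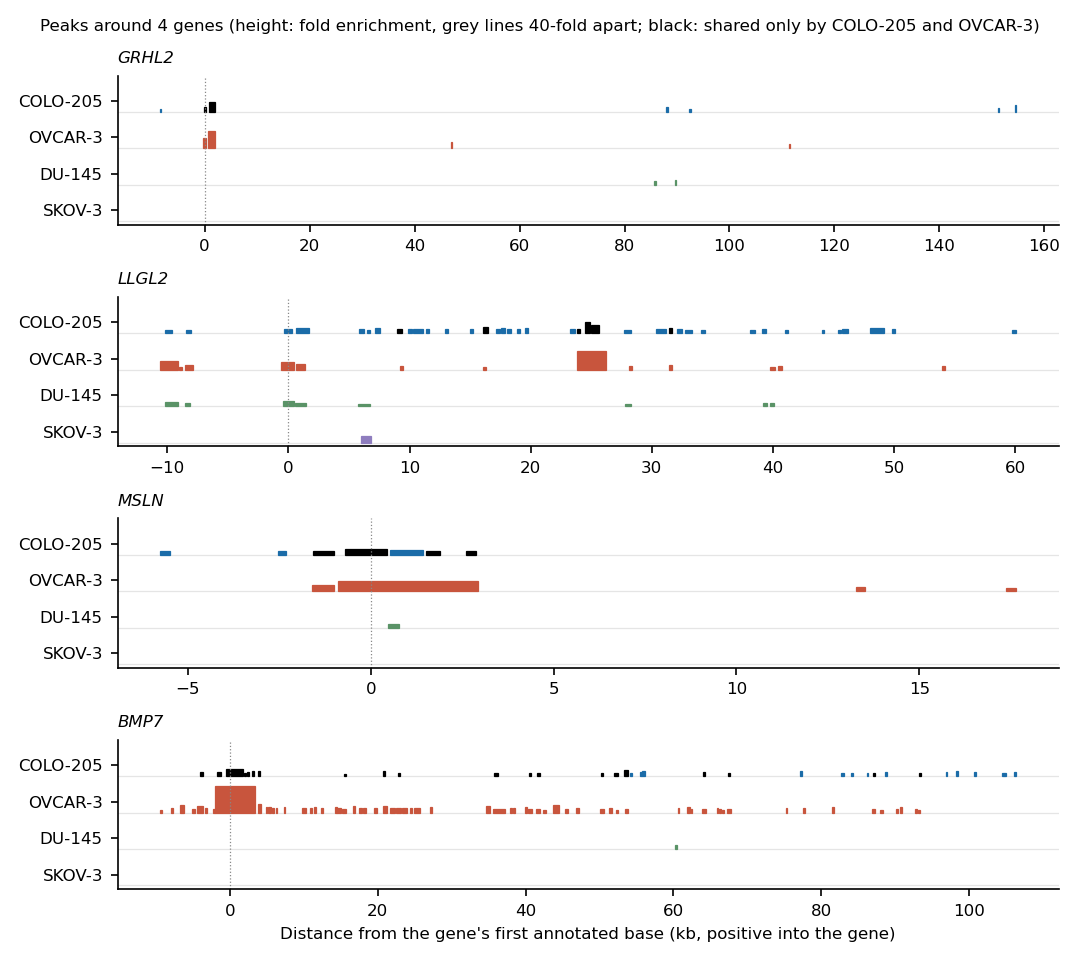
Peaks of the 4 lines around GRHL2, LLGL2, MSLN and BMP7 by distance in kb from the gene's first annotated base, positive into the gene, drawn at their width with the fold enrichment as height. Black bars in the COLO-205 row are the COLO-205/OVCAR-3 peaks. At GRHL2 the strongest lies at the start and DU-145 peaks appear only deep in the gene, at BMP7 they are spread over the gene with the strongest at the start and 1 DU-145 peak among them, at LLGL2 the highest lie well inside the gene, and at MSLN the only DU-145 peak falls between them.

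Among distal peaks the highest rank was that of the first LLGL2 window printed above. Its fold was 12.9 with 131 tags in COLO-205 and 20.6 with 222 tags in OVCAR-3. LLGL2 organises the basolateral side of epithelial cells. The peak lay 3383 bp from the nearest annotated start and 2858 bp from a DU-145 peak, and 3 COLO-205 peaks shared the same wide OVCAR-3 peak. Around the first annotated start of LLGL2, COLO-205, OVCAR-3 and DU-145 all had a peak, with highest folds at any of its starts of 5.53, 8.77 and 5.67. The single SKOV-3 peak of the locus, of fold 7.13, began 6.03 kb into the gene, near another annotated start.

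The TP63 window had a fold of 8.69 in COLO-205 and 14.5 in OVCAR-3, and lay 53206 bp inside from the nearest TP63 start, while no line had a peak within 1 kb of a TP63 start. The CBR4 window, 60263 bp upstream of the nearest start, had 10.8 and 28.0. The peak nearest to TRPV2 had 8.90 and 24.3 and stood 322 bp from the start of SNHG29, a small nucleolar RNA host gene, so it is distal only to protein-coding starts. The nearest DU-145 peak was 481758 bp from the CBR4 peak and 375741 bp from the one nearest to TRPV2. Such wide gaps in the DU-145 list are described below. A peak 12854 bp from ASCL2, a transcription factor of intestinal stem cells, had 7.66 in COLO-205 and 13.5 in OVCAR-3. The ASCL2 start carried a peak of fold 9.47 in COLO-205 and no peak in any other line. OVCAR-3 thus marked a region downstream of ASCL2 without marking its promoter. Other distal peaks of the rule were nearest to SLC22A18, CEBPB, CXXC5, DRGX, C1orf127 and the gene annotated as AC093323.1, with folds of 4.18 to 8.19 in COLO-205 and 8.90 to 23.0 in OVCAR-3.

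Genes of the epithelial state were followed as a list of 55. Of these, 18 were the nearest protein-coding gene to at least 1 COLO-205/OVCAR-3 peak, or 32.7% (exact 95% interval 20.7 to 46.7), against 12.6% of all 19794 protein-coding genes. Genes with many starts or long neighbouring intervals are more often the nearest, and lists were not matched for this. The peaks that COLO-205 shared with DU-145 only were nearest to 13 of the 55, or 23.6%. Of the 55 genes, 12 or 21.8% had a COLO-205/OVCAR-3 peak within 1 kb of a start, beside 3.94% of all genes.

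For 4 of those 12, GRHL2, OVOL2, PRSS8 and TMC4, both lines had a start peak and neither DU-145 nor SKOV-3 did. Over all protein-coding genes this pattern was found at 417 of the 780 with a COLO-205/OVCAR-3 peak at a start, or 2.11% of all 19794, so it was no more frequent among the 12. OVOL2, a zinc finger repressor that holds cells in the epithelial state, had start folds of 4.60 in COLO-205 and 7.16 in OVCAR-3. PRSS8, a membrane-anchored serine protease, had 4.02 in COLO-205 and 7.27 in OVCAR-3. TMC4, a transmembrane channel-like gene, had 3.83 in COLO-205 and 30.7 in OVCAR-3. ESRP1, an epithelial splicing regulator, had 9.48 in COLO-205, 13.3 in OVCAR-3 and a weaker peak of 3.11 in DU-145. ELF3, an epithelial ETS factor, had 3.23 in COLO-205, 16.9 in OVCAR-3 and 8.66 in DU-145, so its fold was higher in DU-145 than in COLO-205, each within its own library. JUP, the junction protein plakoglobin, and KRT18, a simple epithelial keratin, had start peaks in DU-145 as well, with 56 and 84 tags. Across the list, start peaks were present at 44 genes in COLO-205, 52 in OVCAR-3, 42 in DU-145 and 13 in SKOV-3. Over all 19794 genes the counts were 9665, 11768, 11616 and 6131 in the same order. Most epithelial genes were thus marked in 3 of the lines, at higher shares than genes in general, and in SKOV-3 at a lower one. The COLO-205/OVCAR-3 peaks fell on or beside some of these epithelial genes.

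Of 36 mesenchymal genes only SNAI1 was nearest to a COLO-205/OVCAR-3 peak, or 2.78% (exact 95% interval 0.0703 to 14.5), an interval that includes the 12.6% of all genes. For the peaks that COLO-205 shared with DU-145 only it was 4 of 36, or 11.1%, beside 12.0% of all genes. SNAI1 encodes a repressor of E-cadherin. All 12 of its peaks were distal, and they lay on chromosome 20 between 48 and 49 Mb, where OVCAR-3 peaks covered 22.7% of the bases and 99 COLO-205/OVCAR-3 peaks were found. Its start was marked in COLO-205, OVCAR-3 and DU-145, with folds of 3.39, 6.42 and 4.23.

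Of 41 Müllerian and ovarian carcinoma genes, 15 or 36.6% (exact 95% interval 22.1 to 53.1) were nearest to a COLO-205/OVCAR-3 peak, and 2, or 4.88%, to a peak that COLO-205 shared with DU-145 only. Over all protein-coding genes these shares were 12.6% and 12.0%. Start peaks were present at 21 of the 41 in COLO-205, 28 in OVCAR-3, 18 in DU-145 and 11 in SKOV-3. Over all 19794 genes the counts were 9665, 11768, 11616 and 6131 in the same order. The COLO-205 share was thus close to that of genes in general. At 8 of the 41 a COLO-205/OVCAR-3 peak lay within 1 kb of a start, beside 3.94% of all genes. At the starts that COLO-205 marked among the genes named here, its fold lay between 2.90 and 6.33, around the median of 4.73 over all COLO-205 peaks. WT1, a transcription factor of the urogenital ridge, had a start peak of fold 5.04 and 26 tags in COLO-205 and of fold 20.0 and 131 tags in OVCAR-3, with none in DU-145 or SKOV-3. EMX2, a homeobox gene of the urogenital tract, had 10 COLO-205/OVCAR-3 peaks and a start fold of 3.57 with 22 tags in COLO-205 against 34.9 with 229 tags in OVCAR-3. PAX8, the lineage factor of Müllerian epithelium, had 4.48 in COLO-205, 31.3 in OVCAR-3, 5.19 in DU-145 and 8.86 in SKOV-3. Beside MSLN, whose COLO-205 fold of 6.33 is given above, HOXA7 and KLK6 also had a start peak in both lines. HOXA7 had 2.90 in COLO-205 and 5.43 in OVCAR-3, and KLK6, a kallikrein peptidase, had 3.87 and 4.71, with no start peak in DU-145 or SKOV-3. LHX1 had start peaks in all 4 lines, of fold 3.47, 5.67, 3.19 and 3.84. CCNE1, the cyclin E1 gene, also had start peaks in all of them, with 4.72 in COLO-205 and 35.2 in OVCAR-3. Other genes of the list were nearest to distal COLO-205/OVCAR-3 peaks and had no start peak in COLO-205. SOX17 had a start fold of 17.0 in OVCAR-3 and 6.93 in SKOV-3, and MUC16, the gene of the CA125 antigen, had 24.2 in OVCAR-3 and 5.42 in DU-145. WT1, KLK6, SOX17 and MUC16 were named after their values were seen.

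**Figure D3:**
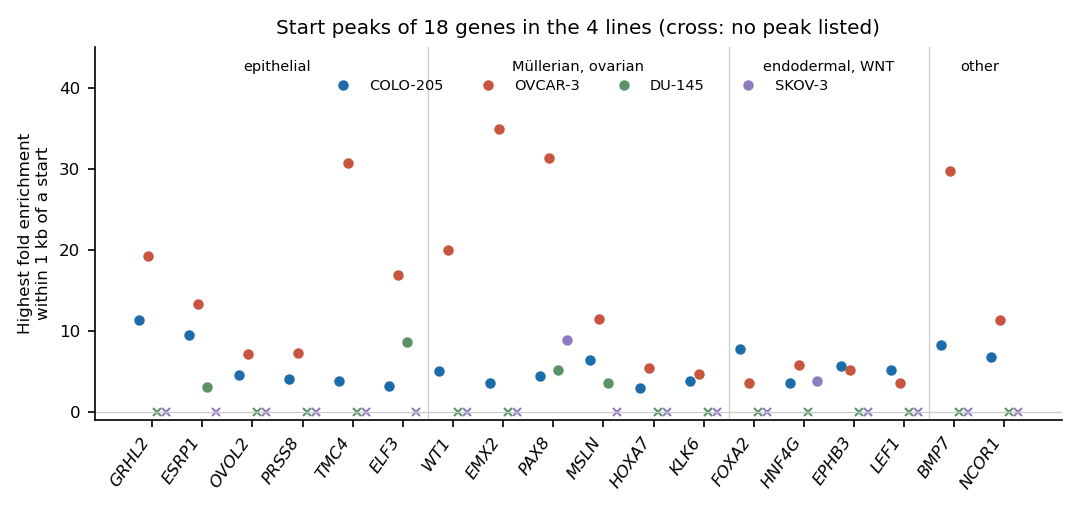
The highest fold enrichment within 1 kb of a protein-coding start is plotted for 18 genes of the text in each of the 4 lines, and a cross at 0 means that no peak is listed. OVCAR-3 reaches its highest values at EMX2, PAX8, TMC4 and BMP7, with 34.9, 31.3, 30.7 and 29.7, COLO-205 stands above it at FOXA2, EPHB3 and LEF1, and GRHL2, OVOL2, PRSS8, TMC4, WT1, EMX2, HOXA7, KLK6, FOXA2, EPHB3, LEF1, BMP7 and NCOR1 have crosses in both DU-145 and SKOV-3.

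Colon genes were counted as 2 lists. Of 45 genes of the colon surface and brush border, 7 or 15.6% (exact 95% interval 6.49 to 29.5) were nearest to a COLO-205/OVCAR-3 peak, an interval that includes the 12.6% of all genes. LGALS4, a galectin of the gut, accounted for 10 of their 19 peaks and had start folds of 3.91 in COLO-205, 8.09 in OVCAR-3 and 3.16 in DU-145. It lies on chromosome 19 between 39 and 40 Mb, where OVCAR-3 peaks covered 72.6% of all bases. TFF2, a trefoil factor, had 5.59 in COLO-205 and 5.46 in OVCAR-3 and no start peak in the other lines. Of 32 intestinal and endodermal transcription factors, 10 or 31.3% were nearest, and the same number to peaks shared with DU-145 only. FOXA2, a forkhead factor of endoderm, had 7.70 in COLO-205 and 3.54 in OVCAR-3, and none in DU-145 or SKOV-3. HNF4G, a nuclear receptor of gut epithelium, had 3.53 in COLO-205, 5.74 in OVCAR-3 and 3.79 in SKOV-3. TCF7L2 and ID1 were marked at their starts in all 4 lines. Mucins were nearest in 5 of 19 cases, among them MUC2, whose shared peak, 965 bp from the start, had 2.90 in COLO-205 and 3.14 in OVCAR-3, MUC13, with 8.10 in OVCAR-3 only, and MUC20, with 6.46 in COLO-205, 6.68 in OVCAR-3 and 4.38 in DU-145.

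Signalling and growth genes were counted in the same way. Over all protein-coding genes, 12.6% were nearest to a COLO-205/OVCAR-3 peak and 12.0% to a peak shared with DU-145 only, and the intervals of lists of this size are wide. Of 26 WNT pathway targets, 9 or 34.6% were nearest to a COLO-205/OVCAR-3 peak and 10 to a peak shared with DU-145 only. EPHB3, an ephrin receptor of the crypt base, had 7 such peaks and a start fold of 5.61 in COLO-205 and 5.11 in OVCAR-3, and LEF1, a WNT effector, had 5.12 and 3.57, with none in DU-145 or SKOV-3 for either gene. AXIN2, a feedback inhibitor of the pathway, was marked at its start in all 4 lines, with 7.35, 17.0, 5.35 and 4.97 in COLO-205, OVCAR-3, DU-145 and SKOV-3. MYC had 3 distal peaks, and its start was marked in COLO-205, OVCAR-3 and DU-145 at 2.91, 4.74 and 5.12. Of 19 genes of the G1 phase, 7 were nearest, including CDK6 and CDKN2A, against 2 for the peaks shared with DU-145 only. Of 20 AP-1 family genes it was 5 against 1, with FOS and JDP2 each near 3 or more distal peaks. Of 17 Krüppel-like factors it was 4 against 6, with KLF12, KLF13 and KLF15 named by the rule, and KLF15 near 10 peaks. Of 27 ETS factors it was 5 against 4, with ETV4 and ELF3 marked at their starts, and of 19 prostate luminal genes 3 against 3, with TMPRSS2 and SLC45A3 near 3 or more distal peaks. As a background list, 9 of 381 olfactory receptor genes, or 2.36%, were nearest to a COLO-205/OVCAR-3 peak.

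The study predicted master regulators for COLO-205 and OVCAR-3 from motifs enriched at genes overexpressed in the same lines. It kept factors that were themselves overexpressed there and related to the cancer type. The lists describe the same lines and are not taken here as independent evidence. Of the 7 genes listed for COLO-205, 3 were nearest to a COLO-205/OVCAR-3 peak, ELF3, PITX1 and TFF3, and 4 to a peak shared with DU-145 only. These shares rest on too few genes to be set beside the 12.6% and 12.0% of all genes. PITX1 had a start fold of 9.73 in COLO-205 and 6.13 in DU-145, and no start peak in OVCAR-3. Of the 2 genes listed for OVCAR-3, FOS was nearest to 4 such peaks and was marked at its start in all 4 lines, with 63, 230, 116 and 61 tags in COLO-205, OVCAR-3, DU-145 and SKOV-3.

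**Figure D4:**
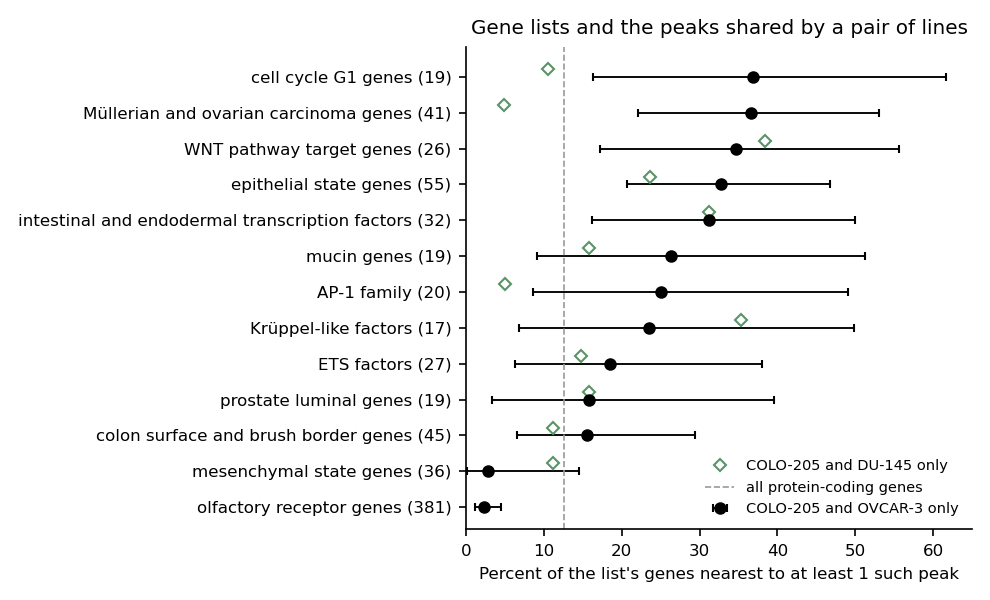
Black points give the percent of each list's genes that are nearest to at least 1 COLO-205/OVCAR-3 peak, with exact 95% intervals and the list size in brackets, and green diamonds the same for peaks that COLO-205 shared with DU-145 only. The dashed line is the 12.6% of all protein-coding genes. Cell cycle, Müllerian and AP-1 genes stand higher for OVCAR-3 than for DU-145, WNT and endodermal genes lie at 34.6% and 31.3% beside 38.5% and 31.3%, and mesenchymal and olfactory receptor genes lie under 3% for the COLO-205/OVCAR-3 peaks.

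Some genes gathered many COLO-205/OVCAR-3 peaks. Of 2490 genes nearest to at least 1, 66 had 10 or more and held 1109 peaks, while 1462 had a single one. CASZ1, a zinc finger gene, had 57, with 69 COLO-205, 132 OVCAR-3, 3 DU-145 and 0 SKOV-3 peaks over the gene and 10 kb on either side. WNT11, a ligand, had 37, but the gene and 10 kb on either side held 8 COLO-205 peaks, so most of the 37 lay outside this locus. OVCAR-3 peaks covered 91.1% of the WNT11 locus. CAMTA1 had 35 and SPSB1 31. BMP7 and SULF2, a heparan sulfate endosulfatase, had 29 each, TBL1XR1 28, CHD5, a chromatin remodeller, 27 and PLXNA1, a semaphorin receptor, 25. The TBL1XR1 locus held 13 COLO-205 peaks, so most of its 28 lay outside the locus too. SULF2 and CHD5 had no DU-145 peak in their loci, where COLO-205 had 36 and 32 peaks and OVCAR-3 had 12 and 72. Peaks of 1 locus share their surroundings and are not replicates of each other.

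The peaks were unevenly spread over the chromosomes. Chromosome 1 held 909, chromosome 3 869, chromosome 17 542 and chromosome 20 489. On chromosome 3, 25.6% of the COLO-205 peaks were COLO-205/OVCAR-3 peaks, and on chromosome 13 it was 0.894%, or 108 of 12078. Chromosome 13 carried 14.1% of all COLO-205 peaks but 0.464% of the OVCAR-3 peaks, and chromosome 3 carried 13.9% of the OVCAR-3 peaks. Where either line had few peaks, few could be shared. Within 1-Mb windows, OVCAR-3 peaks covered a median of 4.28% of the bases around COLO-205/OVCAR-3 peaks and 1.01% around the other COLO-205 peaks. For COLO-205 itself the coverage was 2.57% and 2.89%. Windows with at least 20% of their bases in OVCAR-3 peaks held 829 of the COLO-205/OVCAR-3 peaks, or 14.6%, and 643, or 0.805%, of the other COLO-205 peaks. Both differences in OVCAR-3 coverage follow in part from the rule. It takes only peaks that overlap an OVCAR-3 peak, and most other COLO-205 peaks overlap none. The fullest windows were on chromosome 19 between 39 and 40 Mb with 101 COLO-205/OVCAR-3 peaks, on chromosome 20 between 48 and 49 Mb with 99, and on chromosome 1 between 6 and 7 Mb with 99. The part of the DNA copy number in these counts was not tested.

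**Figure D5:**
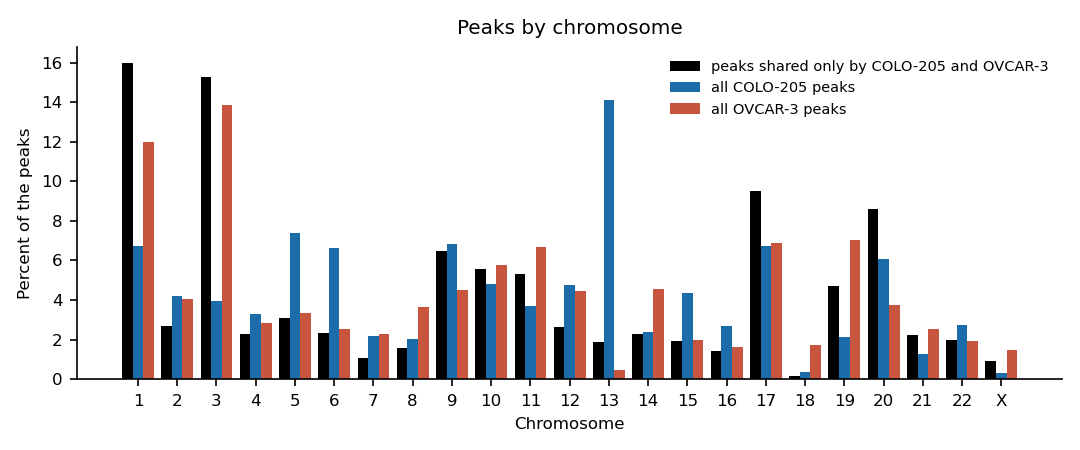
Bars give, for each chromosome except Y, the percent of the COLO-205/OVCAR-3 peaks, of all COLO-205 peaks and of all OVCAR-3 peaks that lie on it. Chromosomes 1 and 3 hold 16.0% and 15.3% of the COLO-205/OVCAR-3 peaks, and chromosome 13 holds 14.1% of the COLO-205 peaks and 1.90% of the COLO-205/OVCAR-3 peaks.

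In 6 stretches of at least 1 Mb the DU-145 list used here had no peak while 10 or more COLO-205/OVCAR-3 peaks were present. Whether DNA copy number, the library or the list itself accounts for these gaps was not tested, so a missing DU-145 peak there, or in other wide gaps such as that around ANKEF1, cannot be read as an unmarked gene. On chromosome 17 a stretch of 1.03 Mb held 19 of them, with 50 COLO-205, 76 OVCAR-3 and 1 SKOV-3 peaks. It contains the starts of 12 protein-coding genes, of which 9 had a start peak in COLO-205 and 11 in OVCAR-3, and none in SKOV-3. NCOR1 is among them, as is UBB, a polyubiquitin gene that nearly all cells express, with start folds of 3.39 in COLO-205 and 7.17 in OVCAR-3. On chromosome 20 a stretch of 3.78 Mb held 13, and of the 8 genes that start there 5 had a start peak in both COLO-205 and OVCAR-3, including SNRPB2, a spliceosome component, with 3.46 and 4.56. The longest, of 16.05 Mb on chromosome 4, held 11, with 126 COLO-205, 150 OVCAR-3 and 31 SKOV-3 peaks. Of the 60 genes that start there, a start peak was listed for 22 in COLO-205, for 31 in OVCAR-3 and for 17 in SKOV-3. Further stretches, of 2.23 Mb on chromosome 1 and of 2.02 and 1.04 Mb on chromosome 3, held 15, 14 and 10. UBB and SNRPB2 were chosen after their values were seen. A missing DU-145 peak at NCOR1 therefore stood among missing peaks at its neighbours, which include a gene of general use.

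Motif letters were compared in the 201-base windows of distal peaks. The AP-1 letters TGANTCA were present in 141 of 4793 windows, or 2.94% (exact 95% interval 2.48 to 3.46), against 2.70% of the windows of peaks found in COLO-205 only, 2.80% of all distal COLO-205 windows and 4.21% of all distal OVCAR-3 windows. The letters were thus as frequent as in other COLO-205 peaks. The GRHL letters AACNNGTT were present in 0.855% and 0.848% of the windows of COLO-205/OVCAR-3 and COLO-205-only peaks. For GGGNGGG it was 32.1% and 25.6%, for the TFAP2 letters GCCNNNGGC 16.5% and 13.3%, and for the ETS letters AGGAAGT 3.17% and 2.31%. In distal peaks that COLO-205 shared with DU-145 only, these 3 shares were 24.2%, 12.1% and 2.28%. The G-rich and TFAP2 letters were more frequent still in COLO-205 peaks of more lists. In distal COLO-205 peaks shared with OVCAR-3 and DU-145 the G-rich letters were in 35.0% and the TFAP2 letters in 18.8%, and in those present in all 4 lists in 50.5% and 27.6%. The ETS letters were in 2.04% and 2.43% of these 2 sets, and in 3.07% of all distal OVCAR-3 windows. The median GC content of the windows of COLO-205/OVCAR-3 and COLO-205-only peaks was 60.2% and 58.2%, and its part in the GC-rich letters was not tested. The PITX letters GGATTA were in 16.5% and 18.8%. A 9-letter run of the Alu consensus that contains them, searched after the data were seen, was in 12.4% and 15.0%, and in 20.7% of the windows of peaks that COLO-205 shared with DU-145 only. Among the 25 motifs, the difference from COLO-205-only peaks in percentage points was largest for GGGNGGG.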

How the data were processed

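Per the submitters' processing notes and the study's methods, the authors mapped reads to hg19 (GRCh37) with Bowtie2 2.1.0 and used MACS2 2.1.0.20150603 on each library for narrow peaks, with 0.001 as the q-value limit. The deposited columns are a score (10 times the −log10 q), the fold enrichment ratio over local background, and the −log10 p and q, none scaled between libraries. The methods state a merging of peaks less than 350 bp apart, which the deposited lists do not show, so peaks were used unmerged. Overlap was at least 1 base. Tags at a summit were recovered as the whole number matching the deposited fold and −log10 p within 0.001, and the scripts were tested on simulated peaks. Starts are those of protein-coding transcripts in GENCODE 44 lifted to GRCh37, and windows span 100 bases on either side of a summit. Shares have exact Clopper-Pearson 95% intervals.

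The members and gene lists were chosen with earlier results of these data known. Named genes were the 12 highest promoters and 12 highest distal peaks by the lower of the 2 percentiles of −log10 q, the 10 genes nearest to most peaks, and up to 6 genes per list with a peak within 1 kb or at least 3 peaks. Other genes were named after their values were seen, and some items of the rule are not reported here. Of the listed genes MUC19, CD24, ACPP and PCA3 were not matched. Alternatives were 2 stricter −log10 q minimums, merging, equal numbers of peaks, 3 overlap rules and leaving out chromosomes. Expression, mutations and other lines were not analysed here. Python 3.11.15, numpy 2.4.6, pandas 2.3.3, scipy 1.17.1, pyfaidx 0.9.0.4, samtools 1.23.1 and matplotlib 3.10.9 were used.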

Additional observations from a re-analysis of the deposited data

How the results depend on the processing

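Of 71 values of the 6 results under 12 other settings, 47 stayed within 1.5 times the main count or within the exact 95% interval of the main share, and 24 moved. No paired analysis was possible because every line has a single library. With the 14001 strongest peaks of every list, which leaves the SKOV-3 list whole, the rule gave 435 peaks. Of these, 168 were among the 5681 and 267 came in because the DU-145 list was shortened too. Of the 435, 61.6% were within 1 kb of a start, 11.0% on chromosomes 3 and 13 (17.2% with all peaks) and 2.40% of the distal ones held the AP-1 letters (2.94%), 286 genes had a peak at a start (780), and 18.2% of the epithelial genes had a nearest one (32.7%), beside 1.89% of all genes. At a −log10 q of at least 10 in every list there were 1348 peaks, 922 of them among the 5681, with 38.1% within 1 kb of a start and 518 such genes. With the DU-145 and SKOV-3 lists whole, the 922 had 27.3% within 1 kb of a start and 252 such genes, and were nearest to 18.2% of epithelial and 3.28% of all genes. The 168 had 46.4%, 75 genes, 7.74% on chromosomes 3 and 13, 2.22% with the AP-1 letters, and were nearest to 7.27% of epithelial and 0.682% of all genes. That share, 15.6% in the full lists, was 14.4% after merging, 14.2% with no DU-145 or SKOV-3 peak within 350 bp, 17.6% without using the SKOV-3 list, and 14.5% when the OVCAR-3 partner also had to be free of DU-145 and SKOV-3 peaks. Without the windows with 20% or more of their bases in OVCAR-3 peaks, 20.1% lay on chromosomes 3 and 13. These last 2 settings and both with the DU-145 and SKOV-3 lists whole were chosen after seeing the data. Without such windows, 29.1% of epithelial genes, 34.1% of Müllerian genes, 0 of 36 mesenchymal genes and 11.6% of all genes were nearest to a peak, so the mesenchymal gene of the text rests on such a window. The lists hold no replicate, so a peak missing from DU-145 or SKOV-3 can be below the caller's limit, and of the COLO-205 peaks that overlap OVCAR-3, SKOV-3 alone removed 470.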
